A study of Mus musculus with 4 samples.

Results

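Kinesins and dyneins are the motors that carry cargo along microtubules, and 55 genes of these motors and of the dynein partner dynactin were measured in the cerebral cortex, out of 15759 genes tested. They were taken by symbol, with names starting in Kif and a digit, Klc, Dync, Dynl or Dctn, and were measured by 74 probes of 27664 whose red or green signal was well above background on every array. The symbols matched 61 genes in all, and 6 of these had no such probe. The 55 genes fell into 19 axonal transport kinesins, 5 mitotic kinesins, 11 other kinesins, 14 dynein genes and 6 dynactin genes.

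The study compared adult male mice labelled Ndrg2-/- with wild-type males, all aged 3 months and on the C57BL/6N background. Each of 4 dual-colour Agilent arrays carried cortical RNA of 1 sample labelled knockout, dyed with Cy5, against 1 wild-type sample dyed with Cy3. The sample labelled knockout was always in the red channel, so genotype and dye cannot be told apart. The labels do not say whether samples were separate animals or pools, nor which part of Ndrg2 was deleted, so p-values speak only of the spread among the samples at hand. Each ratio below is the log2 of labelled knockout over wild type, with the SD over 4 arrays after ±, and a gene is represented by its brightest kept probe.

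The Ndrg2 probe itself was not lower in the samples labelled knockout, at 0.11, 0.37, 0.40 and 0.38 on arrays 1 to 4 (mean 0.32 ± 0.14, limma adjusted p 0.0173). Ndrg2 missed the threshold without array 2 or 3 (adjusted p 0.0651 to 0.0795) and with the processed signals of the scanner files (0.26, adjusted p 0.0663). The direction of every ratio therefore rests on the labels alone. Median spot signals were 283 to 335.5 in red and 94 to 122 in green. Precision is limited by having 4 arrays. Over all kept probes, the log2 ratios correlated at Pearson's r 0.69 between arrays 1 and 2 and 0.55 between arrays 3 and 4. The other pairs of arrays gave 0.36 to 0.46. The fit treats the 4 arrays as independent, which limits every adjusted p below, and the source of this pattern was not tested. Of 13 neuronal markers all were well above background, and their median log2 ratio was 0.06. Meningeal markers were higher in the samples labelled knockout, 9 of 10 of them called, with array medians from 0.26 to 0.68. Their mean log2 signal was 9.69 to 10.11 in the samples labelled knockout, against 9.17 to 9.85 in the wild-type samples. Markers of dividing cells were mostly dim, with 6 of 16 under the background filter and none of the other 10 called. The median log2 ratio of these 10 was 0.09, with 8 of them above 0 and array medians from 0.00049 to 0.19.

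Kinesin-1, made of heavy chains (Kif5 genes) and light chains (Klc genes), carries mitochondria, vesicles and cytoskeletal proteins towards the axon terminal. Kinesin-2 (Kif3 genes and Kif17) and kinesin-3 (Kif1, Kif13 and Kif16b genes) move membrane cargo, among it synaptic vesicle precursors. Mitotic kinesins build and move the spindle and are low in tissue with few dividing cells. Cytoplasmic dynein 1 runs the opposite way, towards the cell body, and needs dynactin to walk over long distances.

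The kinesin-3 genes held the most calls for their number, 3 higher and 1 lower of 6, beside 15.0% called among all genes tested. Their promoter sequences are shown here to place genes that moved in both directions side by side. They are the 250 bases before the first listed start of each gene, from RefSeq on GRCm38.p6, written 5′ to 3′ on the gene's own strand, with GC boxes (GGGCGG) and CCAAT boxes (CCAAT), searched on both strands, in capitals. Kif1a lay at chr1:93101875-93102124, minus strand. Kif1b lay at chr4:149307734-149307983, minus strand. Kif13a lay at chr13:46929719-46929968, minus strand. Kif16b lay at chr2:142901465-142901714, minus strand.
Kif1a: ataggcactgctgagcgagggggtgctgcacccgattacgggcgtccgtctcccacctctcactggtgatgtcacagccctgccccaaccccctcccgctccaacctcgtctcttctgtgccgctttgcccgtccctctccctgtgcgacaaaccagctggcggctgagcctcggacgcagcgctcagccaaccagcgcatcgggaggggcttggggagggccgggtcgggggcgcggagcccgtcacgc
Kif1b: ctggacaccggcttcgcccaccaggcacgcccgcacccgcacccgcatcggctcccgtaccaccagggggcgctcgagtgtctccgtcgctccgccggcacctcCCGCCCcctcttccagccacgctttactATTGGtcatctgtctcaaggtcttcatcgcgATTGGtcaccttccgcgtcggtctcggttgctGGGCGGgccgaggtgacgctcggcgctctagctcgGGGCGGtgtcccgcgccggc
Kif13a: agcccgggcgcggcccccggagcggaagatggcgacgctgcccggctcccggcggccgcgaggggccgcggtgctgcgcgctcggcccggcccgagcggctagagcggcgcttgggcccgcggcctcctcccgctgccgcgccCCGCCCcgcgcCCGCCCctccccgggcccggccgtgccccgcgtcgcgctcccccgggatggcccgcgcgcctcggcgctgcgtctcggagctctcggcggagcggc
Kif16b: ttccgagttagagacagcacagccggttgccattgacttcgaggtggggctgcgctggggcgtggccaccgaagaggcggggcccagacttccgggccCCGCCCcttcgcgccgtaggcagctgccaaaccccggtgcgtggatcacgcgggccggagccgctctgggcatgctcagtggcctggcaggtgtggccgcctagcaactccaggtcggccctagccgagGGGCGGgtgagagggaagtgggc

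Of the genes whose ratio was higher, Kif1a had no match to either motif, Kif1b had 3 GC boxes and 2 CCAAT boxes, and Kif13a had 2 GC boxes. Kif16b, whose ratio was lower, also had 2 GC boxes. GC content was 69.2% for Kif1a, 70.0% for Kif1b, 85.6% for Kif13a and 70.4% for Kif16b. Promoters were listed for 42 of the 55 motor genes, with a median GC content of 63.0%, against 58.8% for 12500 tested genes. A GC box was found in 28 of the 42 (66.7%), against 54.2% of the tested genes' promoters, and a CCAAT box in 18 (42.9%), against 35.7%. Other motifs searched went the opposite way, with a TATA box in 3 of the 42 (7.14%), against 8.04%, and an E-box in 1 (2.38%), against 7.87%. An NRF1 site was found in 1 of the 42 (2.38%), against 1.38%. The cyclic AMP response element TGACGTCA was in the windows of Kif5c, Kif17, Klc1 and Dctn3, against 2.55% of tested genes, and none of these genes was called. Kif5a and Dynll2 had no entry in the table.

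Among the 55 motor genes, 6 were higher and 3 were lower in the samples labelled knockout at limma adjusted p under 0.05. That share, 16.4%, was close to the 15.0% called among all genes tested (9.12% higher and 5.84% lower). The genes that rose were the kinesins Kif5a, Kif1a, Kif13a, Kif2a and Kif1b and the dynein intermediate chain gene Dync1i2. The genes that fell were the kinesins Kif3a and Kif16b and the dynein light chain gene Dynll2, and all 3 lay above 0 when arrays were centred on their median with no loess step, a setting that put the median of all genes at 0.28. The median log2 ratio of the 55 was 0.0101, beside 0.0146 for all genes. With the genes that missed the threshold included, 25 of 55 had 1 sign on all 4 arrays, against 42.7% of all genes. The count of 9 fell to 3, 2, 2 and 7 without array 1, 2, 3 or 4, and the share called among all genes fell with it, to 4.10%, 2.87%, 5.10% and 9.80%. With the processed signals 5 motor genes were called, beside 8.43% of all genes. Of the 9 genes named above, Kif5a, Kif1b, Kif2a and Kif16b kept their call there, while Kif3a (-0.23, adjusted p 0.0634), Dynll2 (-0.17, adjusted p 0.111) and Dync1i2 (0.17, adjusted p 0.0686) missed it, as did Kif1a and Kif13a. With the probes of each gene averaged, 6 motor genes were called, beside 14.4% of all genes. Kif1b, Kif2a, Kif3a and Dynll2 lost their call under that averaging. Kif5a and Kif1a kept theirs, as did Kif13a, Kif16b and Dync1i2, which have 1 kept probe each.

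**Figure D1:**
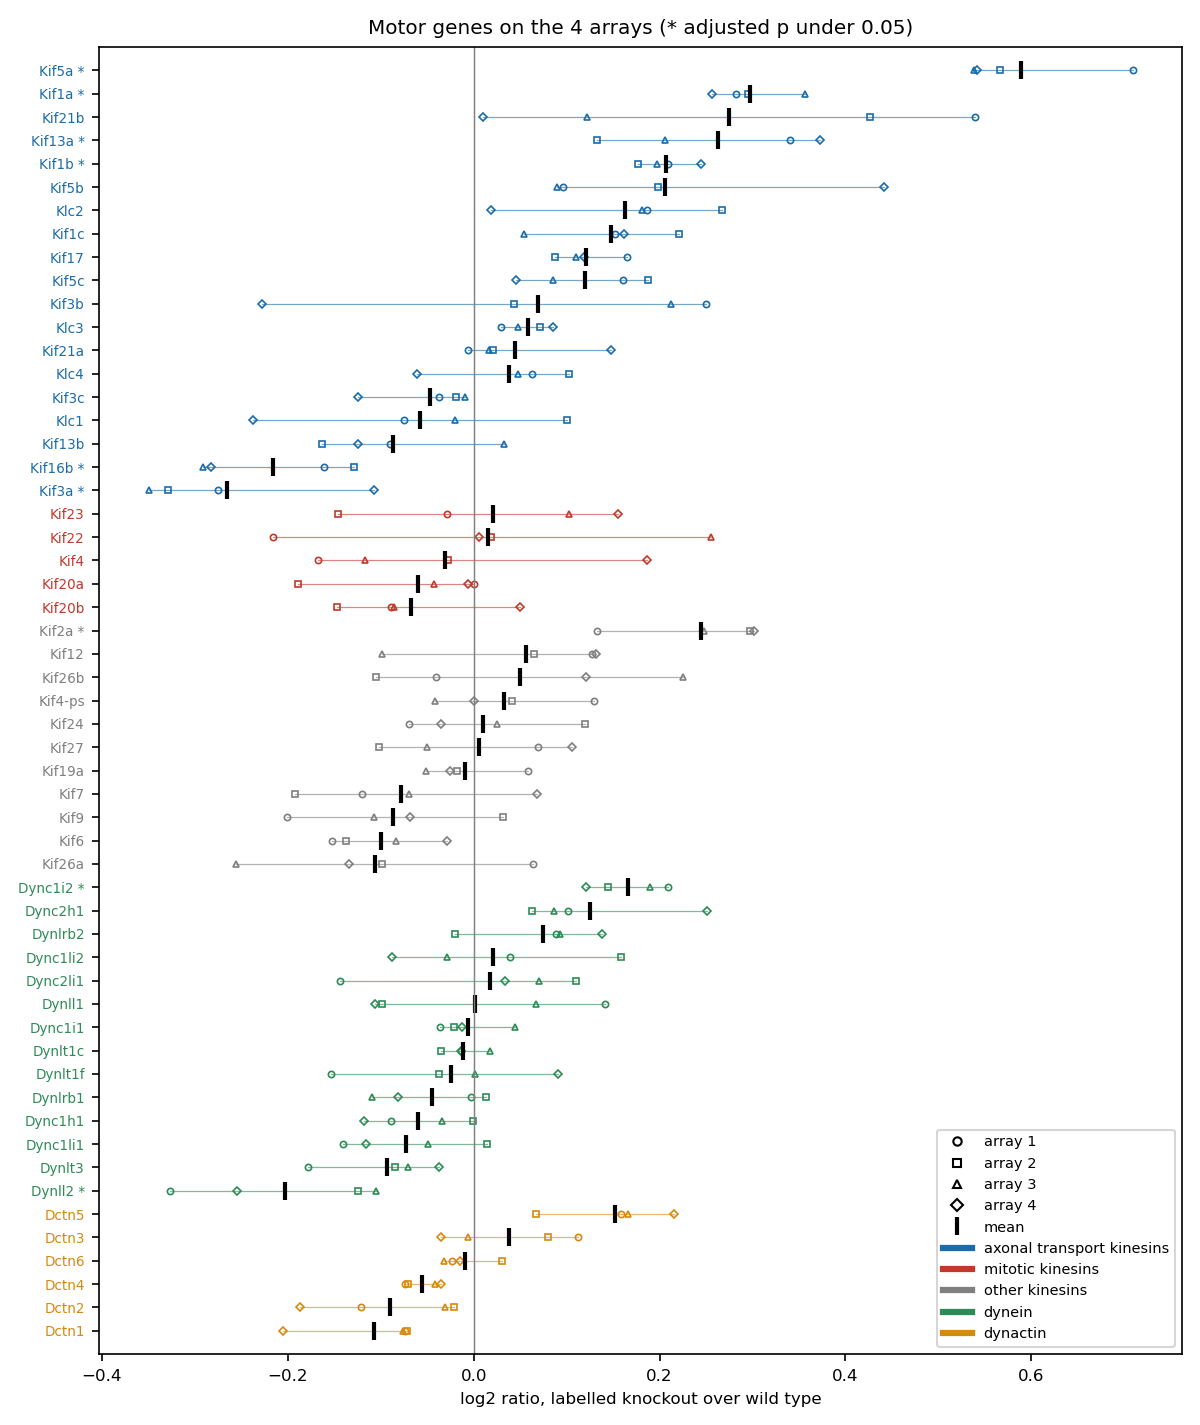
Log2 ratio of labelled knockout over wild type for the 55 motor genes, grouped and coloured by class, with 1 symbol per array and a black bar at the mean; an asterisk marks limma adjusted p under 0.05. Kif5a stands apart at 0.59, most other genes lie within 0.3 of 0, and the 5 mitotic kinesins have array values on both sides of 0.

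Axonal transport kinesins carried most of the calls. Of the 19 genes, 4 were higher, 2 were lower and 13 did not pass. That share, 31.6%, stood beside 15.0% called among all genes tested. Without array 2 or array 3, only Kif5a and Kif1a of this class were called. With the processed signals, only Kif5a, Kif1b and Kif16b of it were. Their median was 0.12, with array medians of 0.15, 0.10, 0.09 and 0.05, and 14 of 19 lay above 0. With the probes of each gene averaged, the median was 0.06. These genes were also bright: the median transport kinesin had 11.9% of tested genes above it in brightness, against 94.7% for the median mitotic kinesin. Of the 11 motor genes in the brightest 5% of genes, 4 were higher and 1 lower, against 19.9% higher and 8.38% lower among all genes that bright. Of the 44 others, 2 were higher and 2 lower. The part of brightness in the count was not tested.

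Kif5a, the neuron-specific kinesin-1 heavy chain on chromosome 10, had the largest ratio of all motor genes. Its normalised signal was 206525, 219838, 200185 and 174735 in the samples labelled knockout on arrays 1 to 4, against 126318, 148421, 137833 and 120021 in the wild-type samples. The groups did not overlap, and Kif5a was the only motor gene of which this was true, against 3.39% of all genes and 24.7% of the brightest 1%. Its log2 ratios were 0.71, 0.57, 0.54 and 0.54, with a mean of 0.59 ± 0.08 (limma adjusted p 0.000753), or 1.50-fold. It was the only motor gene past the 1.5-fold mark of the series' design text on the mean, against 0.273% of all genes, and none passed it on every array.

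Kif5a was among the brightest genes of the array, with 0.121% of tested genes brighter. In the brightest 1% of genes 52.5% were called higher and 2.53% lower, with a median log2 ratio of 0.18. In the brightest 0.5% the median was 0.28, and 5 of these 79 genes exceeded Kif5a. The ratio also moved with the processing, to 0.41 with the processed signals of the scanner files (adjusted p 0.0182), and its other kept probe, a dim one for the transcript NM_008447, gave 0.28, 0.12, -0.10 and -0.02 (mean 0.07 ± 0.16, adjusted p 0.491). The part of brightness in the ratio was not tested.

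**Figure D2:**
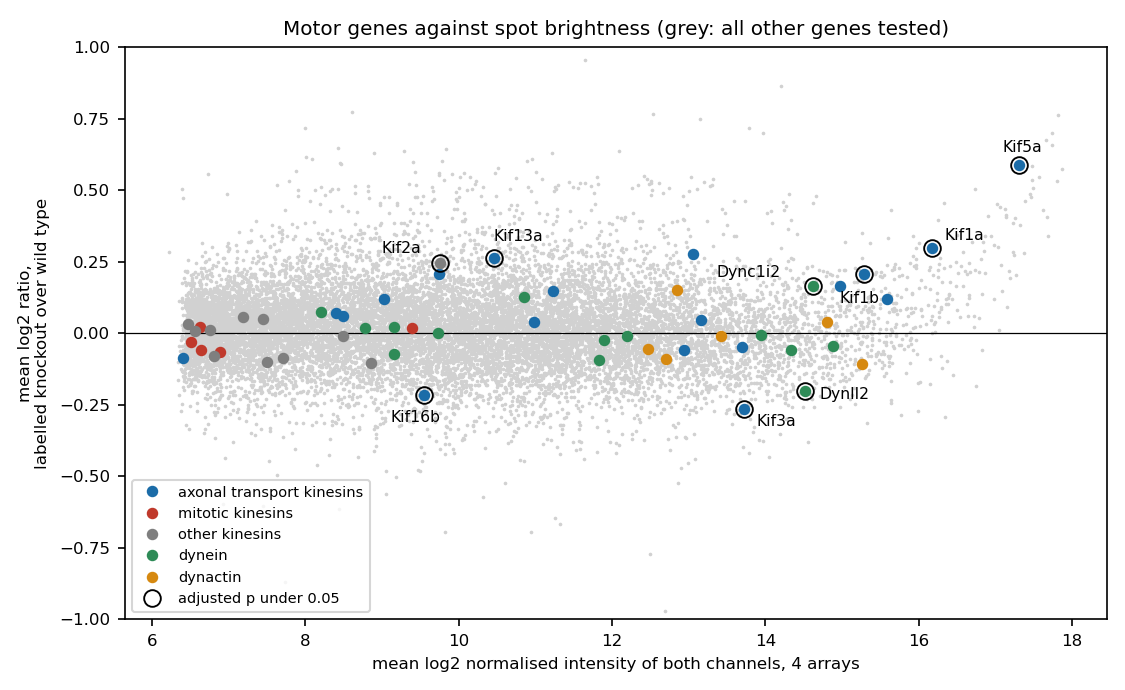
Mean log2 ratio of labelled knockout over wild type against mean log2 normalised intensity over both channels, with every gene tested in grey and the motor genes coloured by class; black rings mark limma adjusted p under 0.05, and 5 genes lie beyond the plotted range of -1 to 1. At the bright end the grey cloud bends upwards, and Kif5a (0.59) and Kif1a (0.30) sit inside that bend, whereas Kif13a, Kif2a and Kif16b sit in the middle of the brightness range.

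The other heavy chain genes had smaller ratios than the brightest probe of Kif5a, and neither passed. Kif5c, also neuronal and on chromosome 2, had log2 ratios of 0.16, 0.19, 0.09 and 0.05 (mean 0.12 ± 0.07, adjusted p 0.0988), although only 1.35% of genes were brighter. Kif5b, the heavy chain found in all tissues, had 0.10, 0.20, 0.09 and 0.44 (mean 0.21 ± 0.16, adjusted p 0.0722), and array 4 was far above the others. Taken array by array, the brightest probe of Kif5a exceeded Kif5c by 0.55, 0.38, 0.45 and 0.50, a comparison picked after the values were seen and given without a test. It does not hold for the other kept probe of Kif5a, whose mean of 0.07 lay below those of Kif5c and Kif5b.

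No kinesin light chain gene passed. Klc2, a cargo-binding light chain, had 0.19, 0.27, 0.18 and 0.02 (mean 0.16 ± 0.10, adjusted p 0.0676), and it passed without array 4 (0.21, adjusted p 0.0425). Klc1, the main neuronal light chain, was at -0.06 ± 0.14 (adjusted p 0.529) on its brighter probe, with array values on both sides of 0, and at 0.18 ± 0.14 (adjusted p 0.0778) on the probe for NM_001025360. Klc3 and Klc4 were at 0.06 ± 0.02 and 0.04 ± 0.07.

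Kinesin-3 genes split by direction. Kif1a, which carries synaptic vesicle precursors and dense core vesicles, had log2 ratios of 0.28, 0.30, 0.36 and 0.26 (mean 0.30 ± 0.04, adjusted p 0.00616), the same sign and nearly the same size on each array. Its normalised signal was 85618, 96845, 80370 and 68254 in the samples labelled knockout, against 70413, 78934, 62762 and 57134 in the wild-type samples, so the ranges overlapped although the sample labelled knockout was the higher on every array. It kept its call with each array left out in turn, as did Kif5a and no other motor gene. It was also very bright, with 0.692% of genes above it, and 41 of the 158 brightest genes had a larger ratio. With the processed signals it missed the threshold (0.19, adjusted p 0.0580), and its other kept probe gave 0.11 ± 0.12 (adjusted p 0.205).

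Kif1b, whose products move mitochondria and synaptic vesicle precursors, had 0.21, 0.18, 0.20 and 0.24 (mean 0.21 ± 0.03, adjusted p 0.0176) on the probe for NM_207682. The probe for another transcript, NM_008441, gave 0.29, 0.16, -0.16 and -0.24, a mean of 0.01 ± 0.25. Arrays 1 and 2 lay above 0 on that probe and arrays 3 and 4 below. Kif1b missed the threshold without array 1, 2 or 3 (adjusted p 0.0611 to 0.0695). Kif1c, a kinesin-3 expressed in many tissues, reached 0.15 ± 0.07 on its brightest probe and missed the threshold (adjusted p 0.0599). Its other kept probes gave 0.03 ± 0.08 and -0.05 ± 0.12.

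Kif13a, which moves endosomal cargo, had 0.34, 0.13, 0.21 and 0.37 (mean 0.26 ± 0.11, adjusted p 0.0206) at middle brightness, with 40.2% of genes above it. Its call was lost with the processed signals at the same size (0.26, adjusted p 0.0589). Kif13a missed the threshold without any 1 array (adjusted p 0.0501 to 0.0732). Kif16b, a motor of early endosomes, was lower on every array, at -0.16, -0.13, -0.29 and -0.28 (mean -0.22 ± 0.08, adjusted p 0.0247), and it kept its call with the processed signals (-0.26, adjusted p 0.0395) but not under median centring (0.08). Kif16b missed the threshold without any 1 array (adjusted p 0.0623 to 0.0979). The difference between Kif13a and Kif16b was 0.50, 0.26, 0.50 and 0.66 over the arrays. Its sign was fixed by picking 1 gene that was higher and 1 that was lower on every array.

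Kif13b was the only motor gene on chromosome 14, which carries Ndrg2. It lay 133 tested genes away from Ndrg2 and gave -0.09, -0.16, 0.03 and -0.12 (mean -0.09 ± 0.08, adjusted p 0.234). It was very dim, with 99.8% of tested genes brighter, which limits what this probe can show.

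Among the 4 kinesin-2 genes 1 was called (25.0%, beside 15.0% of all genes tested), and it was lower. Kif3a, a motor subunit that pairs with Kif3b or Kif3c and that also builds cilia, had -0.27, -0.33, -0.35 and -0.11 (mean -0.27 ± 0.11, adjusted p 0.0197), with array 4 closest to 0. Its normalised signal was 13644, 13623, 11331 and 10895 in the samples labelled knockout, against 16505, 17116, 14439 and 11737 in the wild-type samples, and the ranges overlapped. Kif3a missed the threshold without array 1, 2 or 3 (adjusted p 0.0658 to 0.0887). Its other kept probe for the same transcript gave 0.03, -0.03, 0.04 and 0.10 (mean 0.03 ± 0.05, adjusted p 0.590), so the probes of Kif3a did not share a direction. Kif3c was at -0.05 ± 0.05, and Kif3b at 0.07 ± 0.22 with arrays at 0.25, 0.04, 0.21 and -0.23. Kif17, a dendritic motor that carries glutamate receptors, was higher on all arrays on its brighter probe, from 0.09 to 0.17. That probe missed the threshold (0.12 ± 0.03, adjusted p 0.0757). The other kept probe of Kif17 gave -0.03, 0.01, 0.06 and -0.01 (mean 0.01 ± 0.04, adjusted p 0.935).

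Among the kinesin-4 genes of neurons, Kif21b differed most between arrays, with 0.54, 0.43, 0.12 and 0.01 (mean 0.27 ± 0.25, adjusted p 0.0778). Arrays 1 and 2 were high and arrays 3 and 4 low, the same pairs of arrays that correlated most over all kept probes. It passed without array 4 (0.36, adjusted p 0.0473). Kif21a, its relative that restrains microtubule growth in axons, was at 0.04 ± 0.07 (adjusted p 0.509).

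Mitotic kinesins showed no call. Of the 10 genes matched, Kif11, Kif15, Kif18a, Kif18b and Kif2c were not well above background. Of the 5 others, all but Kif22 were dim, with 89.3% to 98.0% of tested genes brighter, and none had 1 sign on all 4 arrays. Kif20b, which acts in cytokinesis, had the largest ratio of them at -0.09, -0.15, -0.09 and 0.05 (mean -0.07 ± 0.08, adjusted p 0.340), and Kif20a, which acts at the spindle midzone, was at -0.06 ± 0.09 (adjusted p 0.413). Kif22, a motor on chromosome arms, was the brightest of these genes by rank and spread most, with -0.22, 0.02, 0.26 and 0.01. Kif23 and Kif4 were at 0.02 ± 0.14 and -0.03 ± 0.16, and the Kif4 value is uncertain because the transcribed pseudogene Kif4-ps (0.03 ± 0.07) is a close copy. Of all genes in the dimmest 20%, 7.01% were called. The class median was -0.03, with array medians of -0.09, -0.15, -0.04 and 0.05, and it stood at -0.32 under median centring.

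Among the 11 other kinesins only Kif2a was called (9.09%, beside 15.0% of all genes tested), and Kif2b was not well above background. Kif2a takes microtubules apart at their ends and trims axon branches in development. It had 0.13, 0.30, 0.25 and 0.30 (mean 0.24 ± 0.08, adjusted p 0.0175) and kept its call with the processed signals (0.27, adjusted p 0.0431). Kif2a missed the threshold without array 2 or 3 (adjusted p 0.0649 to 0.0808). Its 2 other kept probes gave 0.09 ± 0.12 and -0.08 ± 0.14, and neither passed. Kif6, a motor of motile cilia, was lower on all arrays, from -0.15 to -0.03 (mean -0.10 ± 0.06, adjusted p 0.139), and it passed with the processed signals (-0.21, adjusted p 0.0454). The remaining 9 genes lay between -0.11 (Kif26a) and 0.06 (Kif12).

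Dynein genes showed 1 call in each direction among 14 (14.3%, beside 15.0% of all genes tested), with a median of -0.01. The heavy chain gene Dync1h1, which holds the motor itself, was at -0.09, -0.00051, -0.03 and -0.12 (mean -0.06 ± 0.05, adjusted p 0.340) although it was bright. The intermediate chain gene Dync1i2, which links the heavy chain to dynactin, had 0.21, 0.14, 0.19 and 0.12 (mean 0.17 ± 0.04, adjusted p 0.0336). Dync1i2 missed the threshold without any 1 array (adjusted p 0.0519 to 0.122). The other intermediate chain gene, the neuronal Dync1i1, stayed at -0.01 ± 0.04 on its brighter probe and 0.06 ± 0.05 on the dimmer one. Dync1i2 exceeded Dync1i1 on all 4 arrays, by 0.13 to 0.25, a comparison picked after the values were seen and given without a test. The light intermediate chain genes Dync1li1 and Dync1li2, which bind cargo adaptors, were at -0.07 ± 0.07 and 0.02 ± 0.11.

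Among the light chains, Dynll2, a small hub protein that binds dynein and many other partners, was lower on each array at -0.33, -0.12, -0.10 and -0.25 (mean -0.20 ± 0.11, adjusted p 0.0387). Dynll2 missed the threshold without any 1 array (adjusted p 0.0724 to 0.120). Its other kept probe gave 0.10, 0.02, -0.11 and -0.24 (mean -0.06 ± 0.15, adjusted p 0.540). Under median centring it stood at 0.30, beside a median of 0.28 for all genes. Its near relative Dynll1 was at 0.00095 ± 0.12, with arrays on both sides of 0. Dynlt3 was lower on all arrays but missed the threshold (-0.09 ± 0.06, adjusted p 0.169). Dynlrb1, Dynlt1c and Dynlt1f were at -0.05 ± 0.06, -0.01 ± 0.02 and -0.02 ± 0.10. The Dynlt1 genes are close copies, and whether these probes tell them apart was not tested, so both values are uncertain.

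Dynein 2, the motor of transport inside cilia, was represented by Dync2h1 at 0.10, 0.06, 0.09 and 0.25 (mean 0.13 ± 0.09, adjusted p 0.107) and Dync2li1 at 0.02 ± 0.11 (adjusted p 0.844). Dync2li1 changed sign without array 2 (-0.01). Dynlrb2, a light chain of ciliated cells, was at 0.07 ± 0.07. Markers of ependymal and ciliated cells, a list that holds Dynlrb2 itself, had a median of -0.01, with 7 of the 10 matched genes measured and none called.

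Dynactin subunits were not called in either direction, with a median of -0.03 over 6 genes that turned to 0.44 under median centring. Among all genes tested, 15.0% were called. Dctn5, of the pointed-end complex, came closest at 0.16, 0.07, 0.17 and 0.22 (mean 0.15 ± 0.06, adjusted p 0.0519). It has 1 kept probe, so averaging probes left its ratio unchanged. It passed there only through the fit and adjustment over genes (adjusted p 0.0442). Dctn1, the large subunit p150Glued that binds dynein and microtubules, was lower on all arrays at -0.07, -0.07, -0.08 and -0.21 (mean -0.11 ± 0.07, adjusted p 0.129). Dctn2, which holds the complex together, was at -0.09 ± 0.08 and Dctn4 at -0.06 ± 0.02, both lower on all arrays. Dctn3 and Dctn6 were at 0.04 ± 0.07 and -0.01 ± 0.03.

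Probes of 1 gene often disagreed. Of 15 motor genes with several kept probes, 6 had probes of opposite sign. Among the 9 called genes, 6 had other kept probes, 7 in all, and none of these probes passed. Among all called genes with other kept probes, 113 of 707 had at least 1 that passed in the same direction, so agreement was low across the array. Counted as probes, 9 of 74 motor probes passed (12.2%), against 12.9% of all kept probes. Kif13a, Kif16b and Dync1i2 had a single kept probe each.

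**Figure D3:**
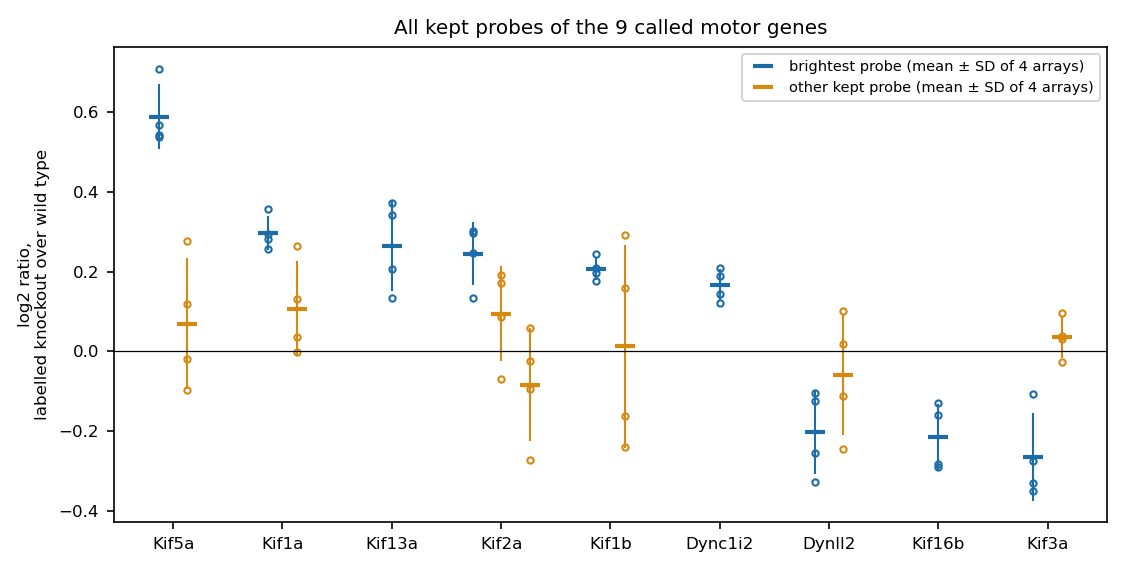
Log2 ratio of labelled knockout over wild type for every kept probe of the 9 called motor genes, with open circles for the 4 arrays and the bar and line for mean ± SD; the brightest probe of a gene is blue and its other probes are orange. The 7 orange probes lie nearer to 0 than the blue ones, and that of Kif3a (0.03) and 1 of Kif2a (-0.08) lie on the opposite side of 0. The genes were chosen because their blue probe passed, which by itself favours larger ratios for the blue probes.

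The partners of these motors were described from lists of genes outside the symbol rule. Of 30 genes listed as kinesin adaptors, 3 were higher and 2 lower (16.7%, beside 15.0% of all genes tested), with a median of -0.01. The list also held the motor genes Kifc1, Kifc2 and Kifc3, which the symbol rule left out. Madd, which links Kif1a and Kif1b to vesicles, had 0.59, 0.50, 0.49 and 0.49 (mean 0.52 ± 0.05, adjusted p 0.000797), but its probe for another transcript was at -0.15 ± 0.26. Trak1, the adaptor of mitochondria to kinesin-1, was at 0.31 ± 0.05 (adjusted p 0.00581), and a further probe gave 0.03 ± 0.12. Ppfia4, a liprin-alpha of the family that binds Kif1a, was at 0.29 ± 0.05 (adjusted p 0.00733), and a further probe gave 0.08 ± 0.10. Averaged over its probes, Madd was at 0.18 and missed the threshold (adjusted p 0.0787). Madd, Trak1 and Ppfia4 were named because they were called higher, and 19 of the 30 listed genes lay below 0, down to -0.26.

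Of 21 genes of dynein activators and the dynactin filament, 1 was higher and 2 lower (14.3%, beside 15.0% of all genes tested), with a median of 0.00. Capza1, an actin capping subunit that also sits in dynactin, had 0.47, 0.53, 0.53 and 0.53 (mean 0.52 ± 0.03, adjusted p 0.000753), and its 3 other kept probes lay between -0.02 and 0.15. The adaptor gene Hook2 was at -0.22 ± 0.09 (adjusted p 0.0238), and its other probe also passed (-0.21 ± 0.12, adjusted p 0.0411). Actr10, an actin-related subunit of dynactin, was at -0.19 ± 0.06 (adjusted p 0.0260), and it missed the threshold with the processed signals (-0.18, adjusted p 0.0741). Hook2 and Actr10 changed sign under median centring (0.13 and 0.24). Hook2 missed the threshold without array 1 or 2 (adjusted p 0.0808 to 0.0999), and Actr10 missed the threshold without array 1, 2 or 3 (adjusted p 0.0895 to 0.100).

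Axonemal dyneins, the motors of motile cilia, showed 1 call among 12 measured genes (8.33%, beside 15.0% of all genes tested). It was Dnah6 at 0.16 ± 0.05 (adjusted p 0.0395). Among 24 genes of the microtubule tracks, 3 were higher and 3 lower (25.0%), with a median of 0.01. The tubulin gene Tuba1c was at 0.47 ± 0.26 (adjusted p 0.0202), with array 4 at 0.87, and Tuba1b, with 0.362% of genes brighter, was at 0.25 ± 0.07 (adjusted p 0.0153). The other probe of Tuba1b gave 0.0084 ± 0.08 (adjusted p 0.915), and with the processed signals Tuba1b was at 0.12 and missed the threshold (adjusted p 0.119). Dcx, a microtubule protein of young neurons, was at -0.72, -0.52, -0.30 and -0.08 (mean -0.40 ± 0.27, adjusted p 0.0343), and its other probe also passed at -0.21 ± 0.10 (adjusted p 0.0340). With the processed signals Dcx was at -0.45 (adjusted p 0.0657) and Dnah6 at 0.20 (adjusted p 0.0728), and neither passed. Dnah6 missed the threshold without any 1 array (adjusted p 0.0580 to 0.141). Tuba1c missed the threshold without array 1 or 2 (adjusted p 0.0558 to 0.0687), Tuba1b missed the threshold without array 1, 2 or 3 (adjusted p 0.0577 to 0.0737), and Dcx missed the threshold without array 1, 2 or 3 (adjusted p 0.0766 to 0.131).

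In whole cortex, fewer cells of a type and less RNA per cell cannot be told apart. The transport kinesins were grouped by kinesin family, and the class holds genes expressed in many tissues, such as Kif5b and Kif1c. Among the neuronal markers, 2 of 13 were called higher and none lower (15.4%, beside 15.0% of all genes tested), with array medians of -0.0029, 0.15, 0.02 and 0.07. The mean log2 signal of the neuronal markers was 13.81 to 14.43 in the samples labelled knockout, against 13.78 to 14.30 in the wild-type samples. Oligodendrocyte markers had 1 call in each direction among 10, astrocyte markers had 1 higher of 9, microglial markers 2 higher of 7 and endothelial markers 1 higher of 6. The astrocyte markers had a median of 0.17, above the 0.12 of the transport kinesins, with array medians from 0.11 to 0.21 and 8 of 9 above 0. No choroid plexus marker was called among 6 measured, and their median was 0.12 with 5 of 6 above 0. The part of these cell types and of the meningeal cells in the motor values was not tested.

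**Figure D4:**
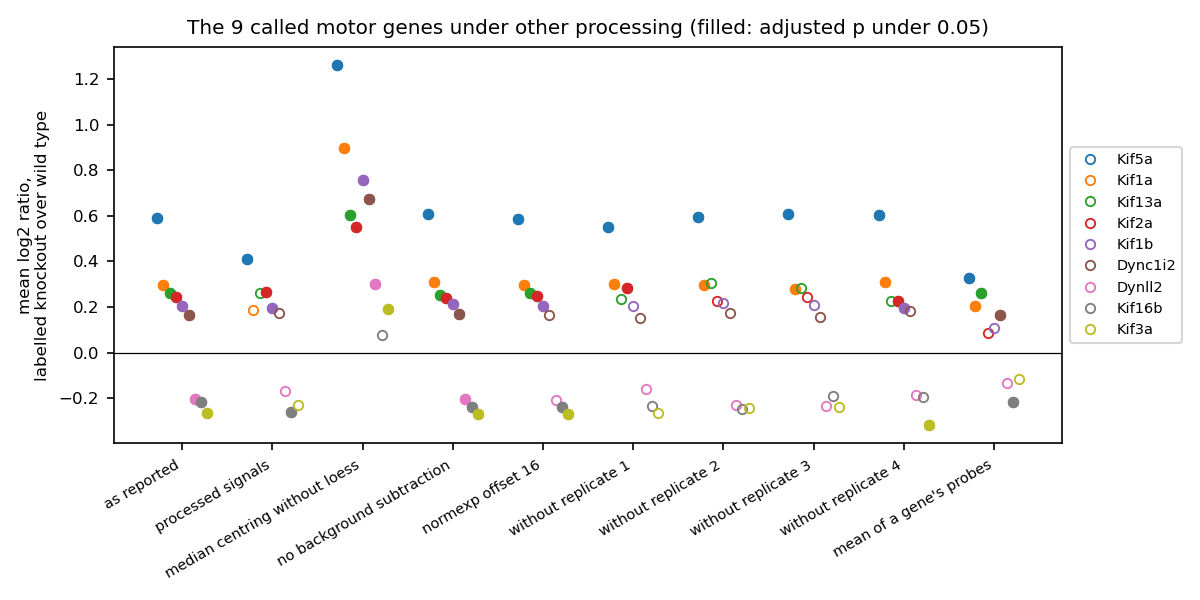
Mean log2 ratio of labelled knockout over wild type for the 9 called motor genes under the reported processing and 9 alternatives, with filled points at limma adjusted p under 0.05. Kif5a stayed called in all of them, between 0.33 and 1.26, whereas Kif3a, Kif16b and Dynll2 moved above 0 under median centring without loess.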

How the data were processed

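Cortical RNA was hybridised to 4 dual-colour Agilent arrays, with labelled Ndrg2-/- in Cy5 and wild type in Cy3, per the labels. The authors extracted images with Agilent Feature Extraction (version 11.0.1.1 in the files, version 10.7.3.1 in the submitters' processing notes). The deposited spot intensity, per the file headers, is a median pixel signal with its local background, and the authors' files also hold processed signals and a log10 ratio (red over green). The authors' deposited log2 table matched log2 of red over green processed signal (Pearson's r at least 0.9999), with column medians of 0.04, 0.03, -0.04 and -0.04.

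Ratios were computed from the intensities with R 4.3.3 and limma 3.58.1, by normexp (offset 50) and loess with 1377 control spots at weight 0. Outlier spots (802 over all arrays) were left out, replicate spots averaged, and 27664 of 39429 probes kept. An intercept-only fit with eBayes gave p-values, adjusted after Benjamini-Hochberg across the 27664 probes (adjusted p under 0.05). Each array pairs the samples of 1 replicate number, so pairing is part of the ratio. Alternatives were processed signals, deposited values, median centring, no background subtraction, offset 16, other probe filters, outliers kept, gene means and each array left out. Symbols came from matching RefSeq accessions to a GRCm38.p6 table (27427 probes). The fit was also run on simulated data whose array values had random signs. That run left out the correlation between arrays, so it cannot show how far the reported p-values hold. Members and lists were chosen with earlier results of these data known.

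Values are given for up to 4 called genes per class, or the 2 largest where none was called, for members on the chromosome of Ndrg2, for called genes with several probes and for up to 3 called genes per partner list. Other members named were chosen after their values were seen.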

Additional observations from a re-analysis of the deposited data

Results flagged for a closer look

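On 6 of the 35 genes and medians examined, 1 array lay far from the other 3, with a gap over the range above Dixon's critical value at the 95% level, which chance gives about 1 time in 20. Ndrg2 was at 0.11 on array 1, below the others. Kif5a was at 0.71 and Madd at 0.59 on array 1, above the others, and Capza1 was at 0.47 on array 1, below them. Dctn1 was at -0.21 and Tuba1c at 0.87 on array 4. All are log2 ratios of labelled knockout over wild type, and the gene kept its sign on all 4 arrays in each case.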

How the results depend on the processing

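Of the alternative values for single genes, 286 kept their side of the threshold, 74 lost their call, 10 gained one and 7 changed sign. The 286 are not independent checks, and many could hardly change. Other probe filters use the same ratios, and averaging leaves genes with 1 kept probe as they were. The deposited values nearly repeat the processed signals. Genes that were not called under the reported processing and stayed so are also counted among the 286. Under median centring without loess 49 motor genes (89.1%) and 63 probes were called, beside 82.3% of all genes, 8 genes passed 1.5-fold on the mean and 5 on every array. The medians there were 0.32 for all motor genes, 0.47 for transport kinesins, 0.44 for dynactin, 0.33 for dynein, -0.32 for mitotic and -0.0561 for other kinesins. The log2 ratios that changed sign there were 0.24 for Actr10, 0.44 for Dctn1, 0.30 for Dynll2, 0.13 for Hook2, 0.0756 for Kif16b and 0.19 for Kif3a; the cause was not tested. The processed signals and the deposited values each called 5 motor genes, put 0 past 1.5-fold and gave a motor median of -0.0016, and without background subtraction that median was -0.0083. Averaging a gene's probes left 0 past 1.5-fold and a transport median of 0.0604. With 1 array left out, 2 to 7 motor genes and 2 to 7 probes were called, 0 to 1 passed 1.5-fold, and the motor median lay between -0.0021 and 0.013. Dync2li1 lay between -0.0132 and 0.0715 with 1 array left out. The fewer arrays also lowered the calls among all genes. Each ratio already pairs the samples of 1 array, so the reported fit is itself paired and no separate paired analysis was run. Spot signal over background limits the dim mitotic kinesins.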
